A study of Drosophila melanogaster with 5 samples.

Results

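The circadian clock genes of Drosophila melanogaster were examined in pupal heads of the mutant strain otd-uvi and of Canton S. The 10 genes were per, tim, vri, Pdp1, cwo, Clk, cyc, cry, dbt and jet, which were taken from a fixed list, and every probe set whose array annotation names one of them alone was kept. This gave 13 probe sets for 10 genes, out of 13966 probe sets and 10844 singly named genes on the array. The gene dbt is annotated under its current symbol, dco. The otd-uvi group held 3 arrays and the Canton S group 2, each hybridised with total RNA of 15 to 20 pooled heads dissected 80 h after pupa formation. The otd-uvi strain carries an allele of oc (orthodenticle, otd), a homeodomain gene related to vertebrate CRX and OTX, that the labels call eye-specific, and Canton S is a wild-type laboratory strain. Each group was a single strain, and whole heads were used, so the eye, the brain, glia and fat body all contributed RNA. In such bulk samples fewer cells of a type and less RNA per cell cannot be told apart.

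The fly clock is a transcriptional feedback loop. CLK and CYC, a pair of bHLH-PAS activators, switch on per and tim, whose proteins return to the nucleus and repress them. In a second loop the same activators switch on vri and Pdp1, whose products repress and activate Clk. In adult heads the clock runs in photoreceptors and glia as well as in a small set of brain clock neurons, and the RNAs of per, tim and vri peak in the evening or early night while those of Clk and cry peak around the morning.

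No clock gene passed the test between the strains. By limma over all probe sets, 0 of 13 clock probe sets had an adjusted p under 0.05, while 0.773% of all 13966 probe sets did. Among the brightest probe sets of each gene the largest differences were a higher signal of per and a lower signal of Clk in otd-uvi, and both had an adjusted p above 0.3. Of these 10 brightest probe sets 9 had a log2 difference below 0, with a median of -0.14, beside 6253 of all 13966 probe sets below 0 and a median of 0.05 over all. Values are linear MAS5 signals, and differences are on the log2(signal + 8) scale, otd-uvi minus Canton S, which understates the change of dim probe sets. Intervals are 95% intervals.

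The 2 groups of arrays differed in ways that bear on dim probe sets. Probe sets for mouse and yeast sequences, 8 in number, serve as controls without a fly target, and their median was 7.03 to 7.92 on the otd-uvi arrays and 3.07 to 3.69 on the Canton S arrays. The brightest of these controls was at 11.2 to 22.9 on the otd-uvi arrays and at 9.13 to 9.30 on the Canton S arrays. With all probe sets ranked by mean signal and cut into 10 bins of equal size, the median difference was 0.28 in bin 3 and -0.13 in bin 9. It was below 0 in bins 6 to 10, which held the brightest probe sets of 7 of the 10 clock genes. Of the clock probe sets 10 of 13 exceeded the brightest control on every array. The targeted gene oc (143425_at) had signals of 27.6, 46.8 and 59.8 in otd-uvi and 71.7 and 56.4 in Canton S (adjusted p = 0.527, limma), with overlap between the groups.

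**Figure D1:**
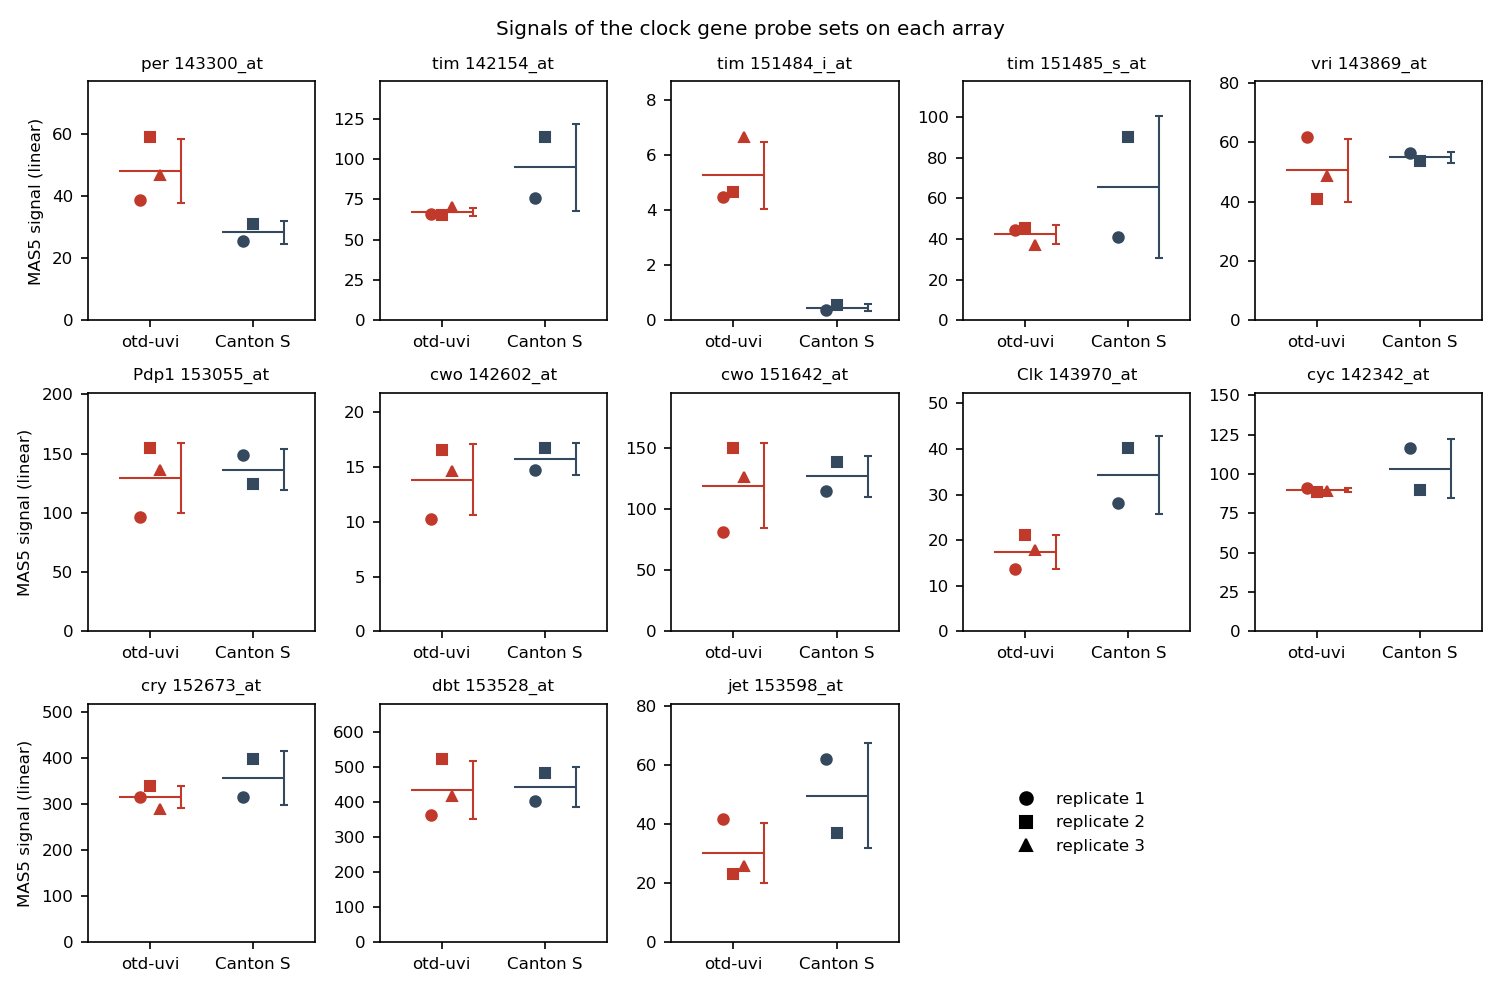
Linear MAS5 signal (vertical axes, from 0) of each of the 13 clock gene probe sets on the 3 otd-uvi arrays (left, red) and the 2 Canton S arrays (right, blue), with symbols for the replicate number, a line at the mean and a bar of 1 SD to each side. The groups are apart for per, Clk, tim 142154_at and tim 151484_i_at and overlap for the other 9 probe sets.

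Clk (143970_at), which encodes an activator of the loop, had signals of 13.7, 21.1 and 17.8 in otd-uvi and of 28.2 and 40.3 in Canton S. Every otd-uvi array was below both Canton S arrays. The log2 difference was -0.72 (SE 0.30, interval -1.43 to -0.02, adjusted p = 0.326 by limma), a fold of 0.606 on this scale with an interval of 0.371 to 0.990. Probe sets in the same bin of mean signal had a median difference of 0.20, so Clk ran against the other dim probe sets. It was above the brightest control on 2 of 3 otd-uvi arrays and on both Canton S arrays. Its partner cyc (142342_at) had signals of 91.3, 88.8 and 89.1 in otd-uvi and of 117 and 90.1 in Canton S. The otd-uvi arrays lay close together and overlapped with the lower Canton S array. The log2 difference of cyc was -0.18 (interval -0.65 to 0.29, adjusted p = 0.703 by limma).

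The gene per (143300_at), whose protein is the core repressor of the loop, had signals of 38.7, 59.2 and 46.7 in otd-uvi and of 25.7 and 31.0 in Canton S. All otd-uvi arrays were above both Canton S arrays. The log2 difference was 0.62 (SE 0.29, interval -0.06 to 1.29, adjusted p = 0.372 by limma), a fold of 1.53 with an interval of 0.962 to 2.44. Probe sets of like signal had a median difference of 0.09.

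Its partner tim, whose protein stabilises PER and is destroyed in light, was measured by 3 probe sets. The brightest, 142154_at, had signals of 65.9, 65.3 and 70.3 in otd-uvi and of 75.8 and 114 in Canton S. The otd-uvi arrays were all lower, although the gap between the Canton S arrays, 0.54 on the log2 scale, exceeded the strain difference of -0.43 (interval -0.98 to 0.13, adjusted p = 0.446 by limma). Probe set 151485_s_at had signals of 44.4, 45.2 and 37.0 in otd-uvi and of 40.8 and 90.3 in Canton S. Here the groups overlapped, and the log2 difference of -0.47 (adjusted p = 0.559 by limma) rested on Canton S replicate 2, since without it the difference was 0.04. The third, 151484_i_at, had signals of 4.49, 4.64 and 6.66 in otd-uvi and of 0.369 and 0.545 in Canton S. These values were below the brightest control on all 5 arrays, so they give no level or fold for tim. The fitted difference of 0.65 (adjusted p = 0.118 by limma) is thus one between signals under that control. No tim probe set above the controls had a positive difference, whereas per had one.

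The remaining members of the second loop overlapped between the strains. The repressor gene vri (143869_at) had signals of 61.9, 40.8 and 48.8 in otd-uvi and of 56.2 and 53.5 in Canton S, so that the otd-uvi arrays lay on both sides of the Canton S arrays. Its log2 difference was -0.12 (interval -0.74 to 0.49). The activator gene Pdp1 (153055_at) had signals of 96.8, 155 and 136 in otd-uvi and of 149 and 124 in Canton S, a log2 difference of -0.09 (interval -0.64 to 0.46). For cwo, whose product represses CLK and CYC targets, the brighter probe set 151642_at had signals of 81.3, 150.4 and 127 in otd-uvi and of 115 and 139 in Canton S, a log2 difference of -0.12 (interval -0.75 to 0.52). For vri, Pdp1 and this cwo probe set the lowest and the highest of the 5 arrays were both otd-uvi arrays. The dimmer cwo probe set, 142602_at, had signals of 10.3, 16.6 and 14.7 in otd-uvi and of 14.7 and 16.8 in Canton S. It exceeded the brightest control on 1 of 3 otd-uvi arrays and on both Canton S arrays, and its log2 difference was -0.13 (interval -0.75 to 0.49). The adjusted p of these 4 probe sets ran from 0.850 to 0.877 by limma, and the intervals allow differences of over 1.4-fold in either direction for vri and cwo.

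Light input and protein turnover were represented by cry, jet and dbt. The blue-light receptor gene cry (152673_at) had signals of 315, 340 and 290 in otd-uvi and of 314 and 398 in Canton S. The groups overlapped, and the log2 difference of -0.17 had the narrowest interval among the brightest probe sets, -0.54 to 0.21 (adjusted p = 0.652 by limma). The F-box gene jet (153598_at), whose product targets TIM for destruction in light, had signals of 41.9, 23.0 and 25.9 in otd-uvi and of 62.2 and 37.1 in Canton S. The groups overlapped through otd-uvi replicate 1, which lay above Canton S replicate 2. The log2 difference of jet was -0.59 (SE 0.35, interval -1.40 to 0.23, adjusted p = 0.473 by limma), and its size was less than that of the gap between the Canton S arrays, -0.64 for replicate 2 minus replicate 1. The kinase gene dbt (153528_at), whose product phosphorylates PER and marks it for decay, had signals of 364, 524 and 416 in otd-uvi and of 404 and 485 in Canton S. Its log2 difference was the nearest to 0 of all 13, at -0.04 (interval -0.48 to 0.39, adjusted p = 0.938 by limma).

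**Figure D2:**
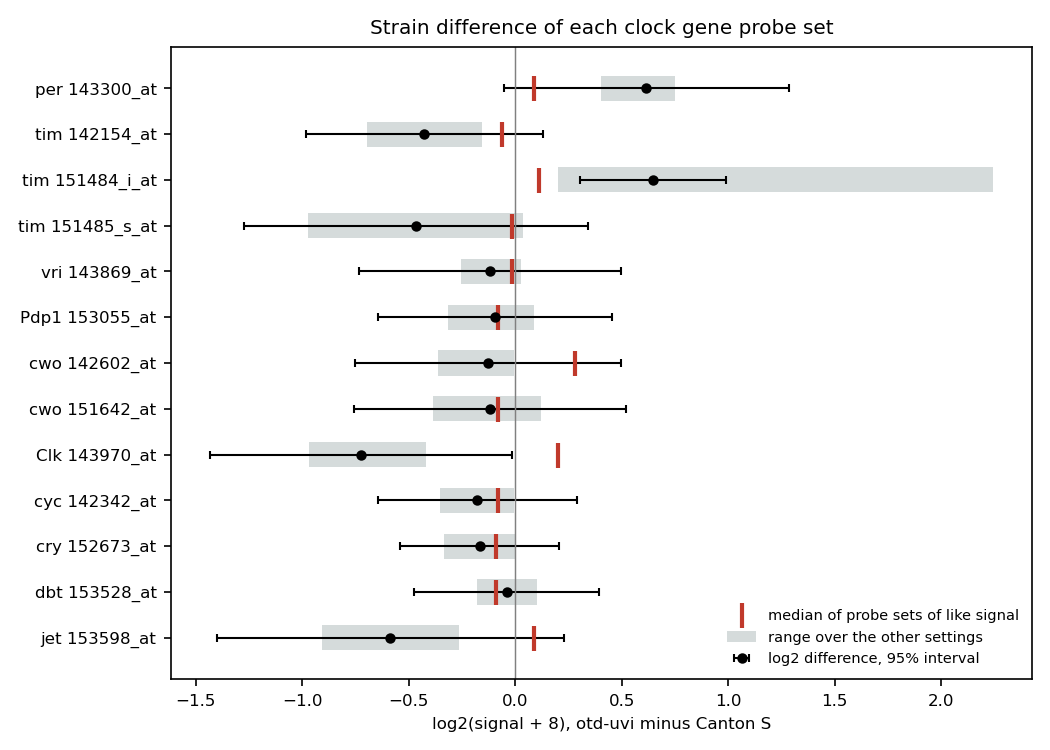
Log2 difference in signal, otd-uvi minus Canton S, for each clock gene probe set (black points) with its 95% interval, the range over the other processing settings (grey) and the median difference of probe sets in the same bin of mean signal (red). The interval of per reaches just below 0, that of Clk ends at -0.02, and only that of tim 151484_i_at, a probe set under the controls, lies wholly above 0.

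Counts without adjustment were small as well. By limma 1 clock probe set had an unadjusted p under 0.05 with a higher signal in otd-uvi, tim 151484_i_at, beside 7.77% of all probe sets. Another, Clk, had one with a lower signal (unadjusted p = 0.0464 by limma), beside 7.27% of all. Arrays of the strains did not overlap for 2 of 13 probe sets higher in otd-uvi, per and tim 151484_i_at, beside 18.6% of all probe sets. They did not overlap for 2 of 13 lower in otd-uvi, Clk and tim 142154_at, beside 15.4% of all. These shares are near the background, so the counts show nothing about clock genes as a group. For 8 of 13 probe sets the strain difference was smaller than the gap between the 2 Canton S arrays.

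A shift in the hour of collection could move the evening RNAs per, tim and vri and the morning RNAs Clk and cry apart. The phases are those of adult heads, and whether they hold in these pupal heads was not tested. The evening RNAs did not move together. Relative to the Canton S mean, per was at 0.36, 0.89 and 0.59 on the otd-uvi arrays. On the same arrays tim was at -0.45, -0.46 and -0.37. The values of vri were 0.15, -0.37 and -0.15. On every otd-uvi array per was above the Canton S mean and tim below it, and their mean with vri was 0.02, 0.02 and 0.03, beside -0.11 and 0.11 on the Canton S arrays. The morning RNAs were both below the Canton S mean on each otd-uvi array, Clk at -0.95, -0.52 and -0.70 and cry at -0.16, -0.06 and -0.28. On the Canton S arrays Clk was at -0.21 and 0.21 and cry at -0.17 and 0.17. Of the 3 otd-uvi arrays 2 had a cry value within the Canton S range and none a Clk value.

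The evening mean minus the morning mean was 0.58, 0.31 and 0.52 on the otd-uvi arrays and 0.07 and -0.07 on the Canton S arrays, an average of 0.47 ± 0.14 in otd-uvi against 0 ± 0.10 in Canton S (SD, n = 3 and 2). Values are relative to the Canton S mean, so the 0 of Canton S and the opposite signs of its 2 arrays are set by the scale. This score has no test, since its genes were chosen with earlier results known. It rested on per and Clk: it was 0.17 without per and 0.19 without Clk, and 0.69 without tim. An effect of the hour of collection was not tested, and the labels used here name an age in hours but no hour of the day and no light cycle.

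**Figure D3:**
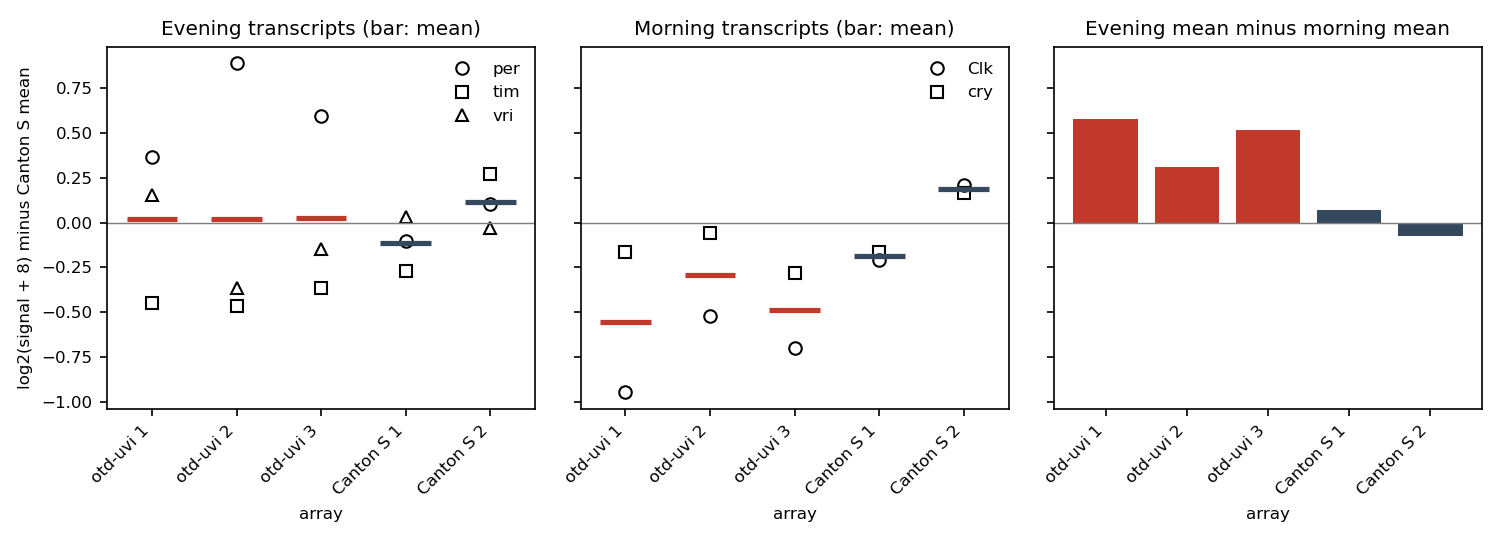
Log2 signal relative to the Canton S mean on each array for the evening RNAs per, tim and vri (left), the morning RNAs Clk and cry (middle) and the difference of their means (right, bars from 0), with otd-uvi arrays in red and Canton S arrays in blue. Per and tim lie on opposite sides of 0 on every otd-uvi array, and the difference is 0.31 to 0.58 there, against -0.07 and 0.07 in Canton S.

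Other proteins modify the clock, among them kinases, phosphatases, ubiquitin ligases and chromatin factors. Of 24 listed regulators 17 had a probe set of their own, and the other 7 were not analysed here. None passed the test by limma over all probe sets. Of the 17, 6 had an unadjusted p under 0.05, 5 lower and 1 higher in otd-uvi, beside 7.27% and 7.77% of all probe sets. Among the 5 lower, tws and kis had another probe set above the controls on every array. These were at -0.26 and 0.01 (unadjusted p = 0.325 and 0.968 by limma). The median log2 difference of the 17 was -0.21. Leaving out Canton S replicate 1 gave -0.42, leaving out otd-uvi replicate 2 gave -0.38 and leaving out its replicate 3 gave -0.09. The farthest from 0 was tyf, which promotes translation of per in pacemaker neurons. Its signals were 22.5, 8.10 and 7.62 in otd-uvi and 51.3 and 74.6 in Canton S, a log2 difference of -1.83 (SE 0.39, adjusted p = 0.105 by limma). No otd-uvi array exceeded its brightest control for tyf, and both Canton S arrays did. The phosphatase subunit gene wdb had signals of 31.9, 40.2 and 22.2 in otd-uvi and of 62.1 and 82.4 in Canton S, also without overlap (-1.04, adjusted p = 0.203 by limma). The nuclear receptor gene Hr51, which acts in clock neurons, was at 0.73 (adjusted p = 0.428 by limma), with overlap. The ubiquitin ligase gene ctrip was at -0.70 by its brighter probe set (adjusted p = 0.341 by limma), also with overlap. Its dimmer probe set, 149295_at, also exceeded the controls on every array and was at -0.08 (adjusted p = 0.919 by limma).

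Genes that carry the clock's output, or whose RNA is known to cycle in adult heads, included 3 that passed. Of 19 listed 17 were measured, 1 rose and 2 fell, beside calls for 0.773% of all probe sets. That share includes many dim probe sets. The brightest control was exceeded on every array by 16 of these 17, but by 8240 of all 13966. Leaving out the dimmest 40% gave 208 calls in place of 108. By limma 5 of the 17 had an unadjusted p under 0.05 with a lower and 1 with a higher signal, beside 7.27% and 7.77% of all. The median log2 difference of the 17 was 0.01. Slob, whose protein binds the Slowpoke potassium channel and whose RNA cycles, had signals of 185, 162 and 129 in otd-uvi and of 548 and 537 in Canton S by its brighter probe set (152682_at). Both Canton S arrays were far above every otd-uvi array, and the log2 difference was -1.74 (SE 0.18, interval -2.16 to -1.32, adjusted p = 0.0147 by limma). The dimmer Slob probe set, 145967_at, had signals of 115, 203 and 109 in otd-uvi and of 189 and 193 in Canton S, which overlapped (-0.46, adjusted p = 0.477 by limma).

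The channel gene itself, slo (153878_at), had signals of 131, 243 and 184 in otd-uvi and of 527 and 619.5 in Canton S. It fell with no overlap, and its difference was -1.62 (interval -2.21 to -1.03, SE 0.25, adjusted p = 0.0437 by limma). Ugt35B1 (142271_at), a glucuronosyltransferase gene, rose, with signals of 126, 135 and 97.7 in otd-uvi and of 15.5 and 13.1 in Canton S, and its difference was 2.51 (interval 1.91 to 3.10, SE 0.25, adjusted p = 0.0127 by limma). Its other probe set was under the controls on all 5 arrays. Among the 5 fits that left out 1 array, Slob passed in 1 and slo and Ugt35B1 in none, while all 3 kept their direction. With the 3-prime to 5-prime ratio of control probe sets as a covariate none of the 3 passed, at adjusted p of 0.0678 to 0.0989 by limma, with differences of -1.54 for Slob, -1.85 for slo and 2.62 for Ugt35B1. The gene slo was also past the threshold neither with a pseudocount 4 times larger (adjusted p = 0.0527) nor without the intensity trend (adjusted p = 0.0844). The rise of Ugt35B1 was known when the list was drawn up.

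Signals of the clock neuropeptides did not pass. Dh31, a peptide of some dorsal clock neurons, had signals of 152, 147 and 95.4 in otd-uvi and of 199 and 255 in Canton S (-0.77, adjusted p = 0.224 by limma), without overlap. Pdf, the main peptide of the ventral clock neurons, had signals of 139, 108 and 149.7 in otd-uvi and of 119 and 74.7 in Canton S (0.44, adjusted p = 0.459 by limma), with overlap. As markers of clock neurons, Pdf, its receptor gene Pdfr and the channel gene na, all also in the output list, were above 0, at 0.05 to 0.44. Their summed signal was 210.0 to 304 in otd-uvi and 161 to 270.0 in Canton S, which overlapped. The mean signal of na was 91.9 in both strains. For Pdf and na the gap between the Canton S arrays (-0.62 and -0.84, replicate 2 minus replicate 1) exceeded the strain difference in size.

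**Figure D4:**
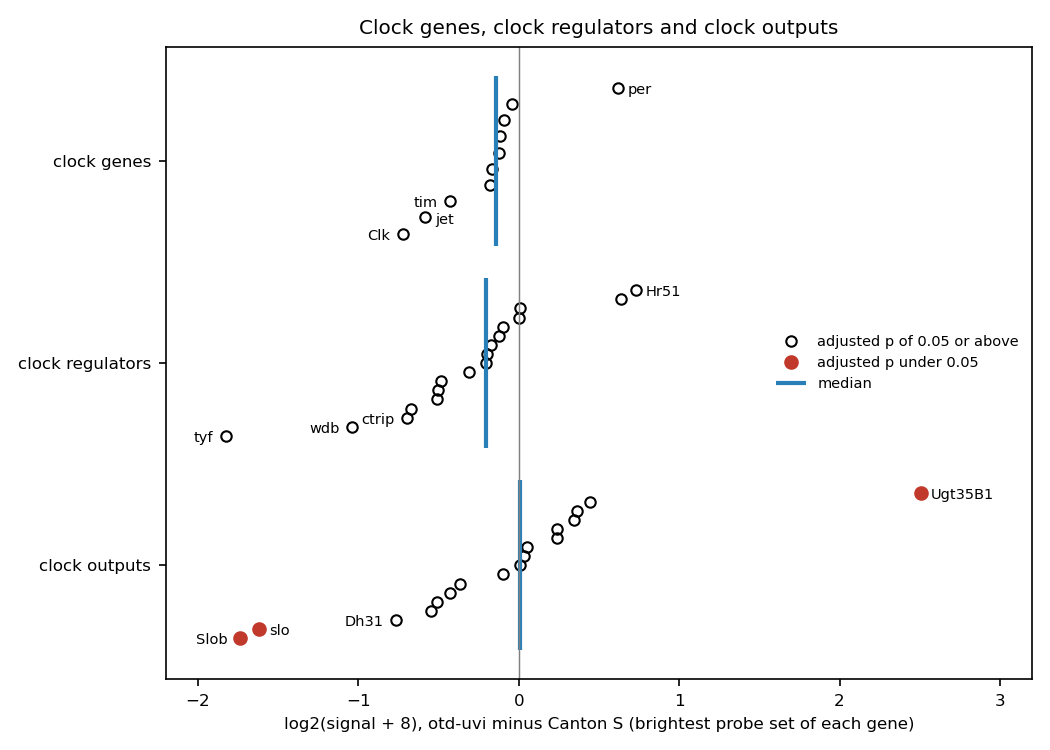
Log2 difference in signal, otd-uvi minus Canton S, of the brightest probe set of each of the 10 clock genes, 17 clock regulators and 17 clock output genes, with the median of each list as a blue line. Filled red points had an adjusted p under 0.05, and these were Slob, slo and Ugt35B1.

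Markers of head cell types were read on the same arrays. Of 10 photoreceptor markers 7 were measured, of which 4 fell and none rose by limma, beside calls for 0.773% of all probe sets. That share includes many dim probe sets, whereas all 7 markers exceeded the brightest control on every array. Their median log2 difference was -1.07, with a summed signal of 6311 to 7851 in otd-uvi and 12487 to 13961 in Canton S. Of 5 neuronal markers 4 were measured, all with a difference below 0 and none past the threshold (median -0.91), and their summed signal was 293 to 493 in otd-uvi and 751 to 875 in Canton S. For 4 of 5 glial markers the median was -0.15, with sums of 2417 to 3100.0 in otd-uvi and 3498 to 3901 in Canton S. Of these markers 2 were above 0 and 2 below, and the 2 below were the brightest and made up most of the sums. Fat body markers, all 6 measured, had a median of -0.69 with overlapping sums, 1491 to 3641 in otd-uvi and 3378 to 4645 in Canton S. Regulators of late pupal timing, 8 of 10 measured, had a median of 0.08 and a range of -1.07 to 0.54, and none passed. Among them the strains did not overlap for 1 higher and 2 lower in otd-uvi, beside 18.6% and 15.4% of all probe sets. The 1 higher was under the brightest control on all 5 arrays. No marker was listed at 0 on any array. The part of these cell types in the differences of Clk, tim, Slob and slo was not tested.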

How the data were processed

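Total RNA of pupal heads was hybridised to 1 Affymetrix array per sample. Per the submitters' processing notes the authors used MAS5, and the deposited values are its linear signal intensities, already scaled between arrays. The version, settings and scaling target are not given in the sources used here, nor are detection calls or a genome build, so no positions are given. Per the labels the groups are strains, 3 otd-uvi and 2 Canton S arrays, with separate RNA extractions.

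From the deposited intensities, 44 controls were left out and log2(signal + 8) was fitted over 13966 probe sets with limma 3.58.1 in R 4.3.3 (lmFit, eBayes with an intensity trend, strain as the only term), where the 8 is a pseudocount, namely the 20th percentile over all signals after rounding. Adjusted p-values are Benjamini-Hochberg values over all probe sets, and the threshold was 0.05. There were 3 residual and 4.16 prior degrees of freedom, and the number of arrays limits the precision. The fit was tested on data simulated from its own variance model. Changes were planted only among brighter probe sets. The simulation thus does not show how well a change in dimmer ones, such as those of Clk and per, is found. Of the probe sets, 12443 name 1 gene, 327 several and 1196 none here, and symbols were updated by gene identifier from a RefSeq table.

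The 10 genes and the lists of regulators, outputs and markers were chosen with earlier results of these data known. Named genes were every clock probe set, oc, and in the regulator and output lists each gene past the threshold and the 4 farthest from 0. The clock neuron markers Pdf, Pdfr and na were named as well, as were the regulators tws and kis for their other probe sets. Lists used the brightest probe set of each gene. Alternatives were quantile normalization, median centring, cyclic loess, a pseudocount 4 times larger, a floor at the 1st percentile, leaving out the dimmest 40%, weights for arrays, no trend, a block for the replicate number, the 3-prime to 5-prime ratio of control probe sets as a covariate, and leaving out each array. Likeness to other genes across arrays was not computed, since 5 arrays are too few for a correlation.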

Additional observations from a re-analysis of the deposited data

How the results depend on the processing

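No clock probe set passed the threshold under any of the 10 other settings. Of these, the covariate gave 8 calls over all probe sets and the replicate block 1, so a lack of clock calls there says little. The 10 settings and the 5 fits without 1 array gave 192 values for clock probe sets, 13 of them with the sign turned. Per, Clk, jet, cyc, cry, cwo 142602_at, tim 142154_at and tim 151484_i_at kept their sign throughout: without 1 array per ranged from 0.48 to 0.74 and Clk from -0.93 to -0.51, and over the other settings from 0.40 to 0.75 and from -0.97 to -0.42. Signs turned for the other 5, and the cause was not tested. The fit with no trend and that without the dimmest 40% leave the difference of each probe set kept as in the main fit. No sign could turn there, and the replicate block repeats the differences without otd-uvi replicate 3. Pdp1 was at 0.0024 under quantile normalization and 0.0158 under cyclic loess, dbt at 0.102 and 0.0728, and vri at 0.0266 with the 3-prime to 5-prime ratio as covariate, which was 1.32 to 1.88 on the otd-uvi arrays and 1.37 to 1.41 on the Canton S arrays (log2). Without 1 array the ranges were -0.26 to 0.0023 for vri, -0.23 to 0.0888 for Pdp1, -0.18 to 0.0885 for dbt, -0.29 to 0.12 for cwo 151642_at and -0.97 to 0.0382 for tim 151485_s_at.

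The evening minus morning difference of 0.47 stayed above 0 wherever it was computed, which leaves out the array weights, the replicate block and the fit with no trend. It was 0.28 with the larger pseudocount, 0.62 with the floor, 0.19 without the dimmest 40% or with genes above the controls on every array, both of which drop Clk, 0.17 without per, 0.69 without tim, 0.19 without Clk and 0.75 without cry. The median of the output list was -0.0763 under quantile normalization and -0.188 to 0.0814 without 1 array, and that of the regulators -0.422 to -0.0874 without 1 array. The calls over all probe sets numbered 108, and 208 without the dimmest 40%, 8 with the covariate, 1 with the replicate number as a block and 2 to 22 without 1 array. With that block per was at 0.63 and Clk at -0.74, and Slob (-1.60), slo (-1.63) and Ugt35B1 (2.64) did not pass. Only otd-uvi has a replicate 3, so the block sets that array aside and its differences equal those without that array. Same-numbered arrays showed correlations of their deviations of -0.0045 and 0.12. The deviations of the 2 Canton S arrays are exact opposites, so these values say little on whether the 2 shared numbers pair the arrays. The main fit used no pairing. Of the 10 other settings Slob and Ugt35B1 passed in 8 each and slo in 6. The background of 7.03 to 7.92 in otd-uvi limits what can be said of Clk, tyf and the dim tim and cwo probe sets.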

Other observations

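The order of the otd-uvi arrays in each clock probe set was looked at after the values were seen. For 6 of 13 clock probe sets, those of per, Pdp1, Clk, dbt and both of cwo, the signal was lowest on otd-uvi replicate 1 and highest on replicate 2, an order that 19.0% of all probe sets had. For 3 of 13, vri, jet and cyc, the order was the reverse, as it was for 16.1% of all probe sets. On this scale the 3 arrays spanned 0.83 for cwo 151642_at, 0.64 for Pdp1, 0.69 for jet and 0.52 for vri, in each case more than the strain difference. Between the Canton S arrays, 9 of 13 clock probe sets were higher on replicate 2 than on replicate 1, beside 44.3% of all probe sets, and the widest gaps were in tim 151485_s_at (1.01 on the log2 scale), jet (-0.64) and tim 142154_at (0.54). Probe sets of 1 gene share their RNA, and no test was made.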
